A study of Homo sapiens with 6 samples.

Results

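The pancreatic duct identity genes are 8 named genes that mark or build the duct epithelium: the transcription factor genes SOX9, GATA6, HNF4A, ONECUT2, PDX1 and KLF5 and the effector genes CA2 and CFTR. They were taken from the count table by symbol, and each matched 1 of its 58735 rows. They were measured by RNA sequencing in 2 lines. PANC1OR, labelled oxaliplatin-resistant PANC1 (3 cultures), was derived from PANC1 by passaging in ever more oxaliplatin, a DNA-damaging platinum compound. Passaging went on until the cells proliferated stably without the drug. PANC1 is the parental line, established from a human carcinoma of the pancreatic duct and labelled untreated (3 cultures). Since each line is 1 derivation, the tests rest on how much its own 3 cultures varied. The labels do not say whether PANC1OR is a clone or whether drug was present at harvest.

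The duct lines the tree of tubes that carries acinar enzymes to the gut, and its cells secrete bicarbonate. SOX9 keeps progenitors in the embryonic pancreas and persists in adult ducts. PDX1 and GATA6 specify the pancreas, ONECUT factors and HNF4A act in foregut epithelium, and KLF5 regulates the growth of epithelial cells. Carbonic anhydrase 2, encoded by CA2, makes the bicarbonate, and CFTR is the apical chloride and bicarbonate channel. In pancreatic tumours GATA6 and HNF4A are known as marks of the classical, more differentiated subtype.

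Libraries held 10199268 to 26394388 reads assigned to genes. Levels are CPM, counts divided by library totals after TMM adjustment, as mean ± SD over 3 libraries. Log2 fold changes are PANC1OR minus PANC1 with their SE, and adjusted p-values are Benjamini-Hochberg values of edgeR's quasi-likelihood test over all 18751 tested genes unless another fit is named. A gene was called at an adjusted p under 0.05. PANC1OR replicate 3 stood apart by base composition. Genes over 60% GC had a median log2 difference of 1.34 from PANC1OR replicates 1 and 2, and genes under 40% GC one of -0.94. PANC1 replicate 2 differed the same way, to a smaller extent, from PANC1 replicates 1 and 3, by 0.348 and -0.228. Since a bulk library mixes all cells of a culture, fewer cells of a type and less RNA per cell cannot be told apart.

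The duct identity genes changed in both directions. ONECUT2 and GATA6 rose in PANC1OR, CA2 and SOX9 fell, KLF5 had a lower mean without a call, PDX1 was too weak to be tested, and HNF4A and CFTR had almost no reads in either line. Of the 8 genes 5 passed the filter on low counts and 4 of these were called, 2 in each direction, where 17.8% of all tested genes were called. The filter asked for 0.638 CPM in 3 libraries. CA2 reached that in 0 PANC1OR and 3 PANC1 libraries, KLF5 in 1 PANC1OR and 3 PANC1 libraries, and GATA6 in 3 PANC1OR and 2 PANC1 libraries, so CA2 in particular passed only through the line where it was high, and the count supports nothing about the set. The same limit holds for the counts of called genes in the lists below. Among the genes called there, KLF8, CA7 and AREG averaged under 0.638 CPM in PANC1, and ANO1 did in PANC1OR. Under the stricter cutoffs of the series design text, an absolute log2 fold change over 2 and an adjusted p under 0.01, ONECUT2 and CA2 passed, beside 6.25% of all tested genes. The CPM of the lines' libraries did not overlap for 6 members, all except HNF4A and CFTR. These were the 5 tested members, beside 36.5% of all tested genes, and PDX1, which was not tested. The share of all genes called varied with the fit: it was 21.7% in DESeq2, 22.2% in the likelihood ratio test, 17.9% with RLE and 17.8% with upper quartile factors, 11.4% without the filter, 39.1% with GC offsets, 12.4% with the replicate block and 33.7% with both. Leaving out 1 library gave 9.86%, 12.2% and 9.31% without PANC1 replicate 1, 2 and 3, and 12%, 12.5% and 44.1% without PANC1OR replicate 1, 2 and 3. Without PANC1 replicate 2 and PANC1OR replicate 3 together it was 58.5%.

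**Figure D1:**
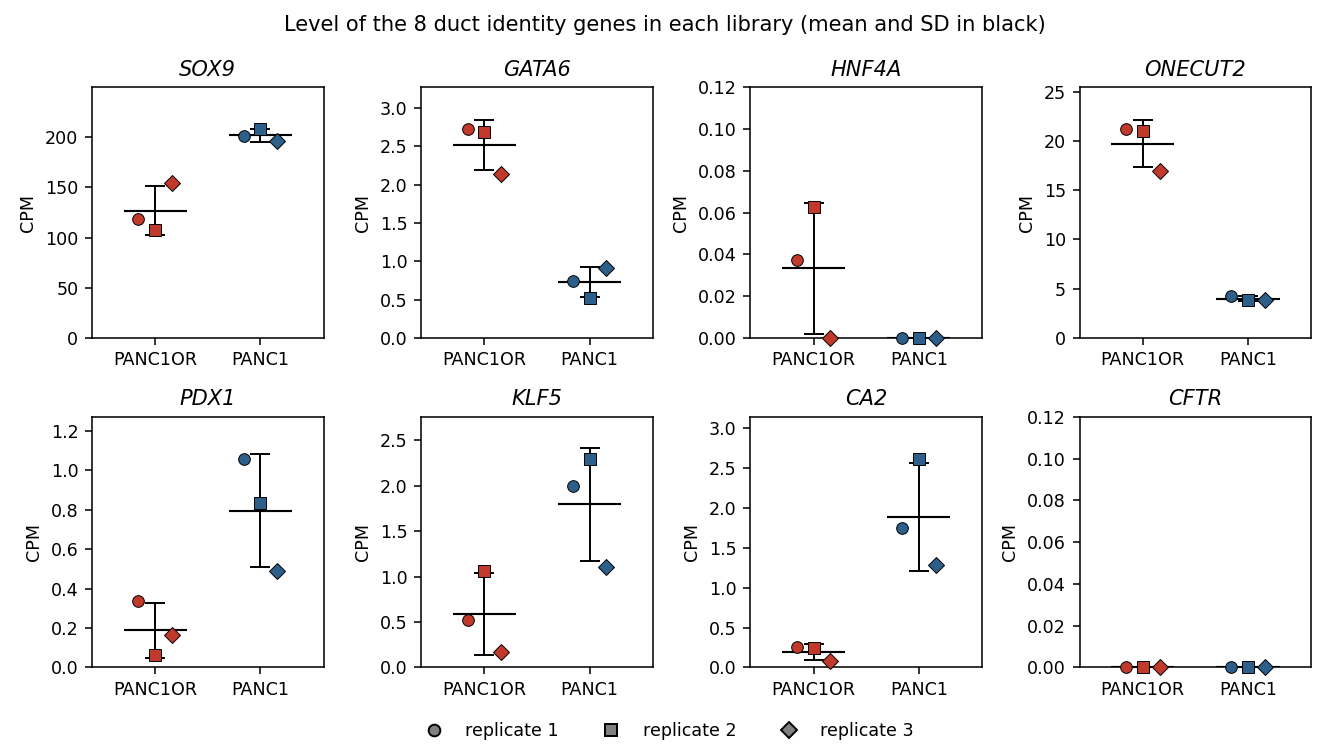
CPM of each duct identity gene in the 3 PANC1OR libraries (left, red) and the 3 PANC1 libraries (right, blue), one panel per gene with its own linear axis from 0; horizontal lines are means and whiskers SD. ONECUT2 and GATA6 lie higher in all PANC1OR libraries, SOX9, PDX1, KLF5 and CA2 lie lower, and CFTR is at 0 throughout.

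Measured per kilobase of exon, SOX9 stood far above the other members in both lines. Mean levels in PANC1OR were 32.2 ± 6.18 CPM per kb for SOX9, 1.19 ± 0.143 for ONECUT2, 0.663 ± 0.0853 for GATA6, 0.159 ± 0.123 for KLF5, 0.0987 ± 0.0499 for CA2 and 0.0722 ± 0.0532 for PDX1. Mean levels in PANC1 were 51.4 ± 1.56 CPM per kb for SOX9, 0.937 ± 0.336 for CA2, 0.488 ± 0.169 for KLF5, 0.305 ± 0.110 for PDX1, 0.241 ± 0.0165 for ONECUT2 and 0.192 ± 0.0522 for GATA6. Below SOX9, ONECUT2 and GATA6 came next in PANC1OR, and CA2 and KLF5 came next in PANC1. HNF4A and CFTR were last in both lines. Within PANC1OR the intervals of mean ± SD of KLF5, CA2 and PDX1 overlapped, and within PANC1 those of each pair of neighbours from CA2 to GATA6 did.

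SOX9 (ENSG00000125398) lies on chromosome 17 at 72121020 to 72126416, plus strand (GRCh38). It had 118, 108 and 154 CPM in PANC1OR replicates 1 to 3, against 201, 208 and 196 CPM in PANC1 replicates 1 to 3. All PANC1OR libraries were lower, and PANC1OR replicate 3 was the highest of them. The log2 fold change was -0.67 ± 0.19 (adjusted p = 0.0447), or 1.59-fold lower. The call was narrow: it was lost without PANC1 replicate 1, 2 or 3 (adjusted p = 0.147, 0.115 and 0.149) and without PANC1OR replicate 1 or 2 (0.167 and 0.182). Without PANC1OR replicate 3 the log2 fold change was -0.85 (adjusted p = 0.000517), and with offsets for each library's GC trend it was -0.68 (adjusted p = 0.00057). SOX9 has 51.1% GC. The antisense RNA gene SOX9-AS1, within whose span SOX9 lies on the opposite strand, had 31, 29 and 10 reads in PANC1OR and 69, 40 and 81 reads in PANC1. SOX9-AS1 fell by 1.81 ± 0.33 on the log2 scale (adjusted p = 0.00644). No source used here states a strand setting for the counting, so reads of the pair cannot be told apart, but SOX9-AS1 held few reads beside the 6759 of SOX9 in PANC1OR and the 8432 in PANC1. SOX8, the SOXE paralog that passed the filter, averaged 1.74 ± 1.07 CPM in PANC1OR and 2.36 ± 0.678 CPM in PANC1 (adjusted p = 0.557), and SOX10 had 6 reads in PANC1OR and 16 in PANC1. SOX8 was called lower in the fit without PANC1OR replicate 3.

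GATA6 (ENSG00000141448) lies on chromosome 18 at 22169589 to 22202528, plus strand. It had 2.73, 2.69 and 2.15 CPM in PANC1OR, from 73, 43 and 26 reads, against 0.747, 0.522 and 0.917 CPM in PANC1, from 12, 5 and 15 reads. Every PANC1OR library was higher than every PANC1 library. The log2 fold change was 1.75 ± 0.32 (adjusted p = 0.00695), 3.37-fold higher, and the gene was called in each of the 6 fits without 1 library (adjusted p from 0.0014 to 0.0435). GATA6-AS1, which starts in the first part of GATA6 on the opposite strand, had 11 reads in PANC1OR and 6 in PANC1, far fewer than GATA6.

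ONECUT2 (ENSG00000119547) lies on chromosome 18 at 57435374 to 57491298, plus strand, and had the highest log2 fold change of the 5 tested members. Its level was 21.2, 21.0 and 17.0 CPM in PANC1OR, against 4.30, 3.86 and 3.79 CPM in PANC1. The libraries of each line agreed closely, and the lowest PANC1OR library was well above the highest PANC1 library. The log2 fold change was 2.31 ± 0.22 (adjusted p = 0.000289), 4.95-fold higher, and the call held without any 1 library (adjusted p from 8.04e-06 to 0.00539). The paralog ONECUT3, whose highest library was PANC1OR replicate 3 at 186 CPM, averaged 120.4 ± 56.8 CPM in PANC1OR and 92.1 ± 5.58 CPM in PANC1 (log2 fold change 0.39 ± 0.31, adjusted p = 0.468). ONECUT1, the liver and pancreas member also called HNF6, had 18 reads in PANC1OR and 11 in PANC1. Per kilobase of exon ONECUT3 stood at 16.8 CPM in PANC1OR and 12.8 CPM in PANC1, above ONECUT2 in both.

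The start regions of GATA6 and ONECUT2 are shown because these are the members that rose. They are RefSeq windows of 250 bases before to 50 after the start on GRCh38.p14, plus strand, at chr18:22169339-22169638 for GATA6 and chr18:57435124-57435423 for ONECUT2. Capitals mark matches to motifs of the members' own factor families, searched on both strands: AGATAA for the GATA factors, ACAAT for SOX factors, ATCAAT for ONECUT factors and CCACCC for KLF factors. A match is a description of the letters, not a binding site.
GATA6: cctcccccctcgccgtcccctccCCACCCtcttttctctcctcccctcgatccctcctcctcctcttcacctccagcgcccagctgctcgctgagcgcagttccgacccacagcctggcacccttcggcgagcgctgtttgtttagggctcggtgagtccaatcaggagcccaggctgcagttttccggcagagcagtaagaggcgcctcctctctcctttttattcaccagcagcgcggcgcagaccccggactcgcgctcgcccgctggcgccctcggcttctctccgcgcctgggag
ONECUT2: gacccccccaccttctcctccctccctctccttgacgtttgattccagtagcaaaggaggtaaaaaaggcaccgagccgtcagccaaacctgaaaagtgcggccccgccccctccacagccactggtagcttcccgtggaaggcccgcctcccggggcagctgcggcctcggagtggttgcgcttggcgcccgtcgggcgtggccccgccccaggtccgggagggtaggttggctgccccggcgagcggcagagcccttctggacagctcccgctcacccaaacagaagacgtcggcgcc
GATA6 held 1 CCACCC and none of the other motifs, and ONECUT2 held none of the 4. Among 35116 RefSeq promoter windows of this length, 10.3% held AGATAA, 27.4% ACAAT, 6.26% ATCAAT and 34.3% CCACCC. The GATA6 window had 66.7% GC and 25 CpG dinucleotides and the ONECUT2 window 68% and 24, against medians of 58.7% and 14 over all windows.

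CA2 (ENSG00000104267) lies on chromosome 8 at 85463968 to 85481493, plus strand, and had the lowest log2 fold change of the 5 tested members. It had 0.262, 0.250 and 0.0826 CPM in PANC1OR, from 7, 4 and 1 reads, against 1.74, 2.61 and 1.28 CPM in PANC1, from 28, 25 and 21 reads. The lines were far apart, although the gene was weak even in PANC1. The log2 fold change was -3.06 ± 0.48 (adjusted p = 0.0033), 8.36-fold lower, and the call held without any 1 library (adjusted p from 0.00162 to 0.0178). KLF5 (ENSG00000102554), on chromosome 13 at 73054976 to 73077541, plus strand, had 14, 17 and 2 reads in PANC1OR and 32, 22 and 18 in PANC1. These are 0.523, 1.06 and 0.165 CPM in PANC1OR, against 1.99, 2.30 and 1.101 CPM in PANC1. The highest PANC1OR library came close to the lowest PANC1 library. Its log2 fold change of -1.55 ± 0.55 did not pass (adjusted p = 0.0982). Without PANC1OR replicate 2 the log2 fold change was -2.19 (adjusted p = 0.0457). KLF5 also passed with GC offsets (adjusted p = 0.0299), in the likelihood ratio test (0.0272) and in DESeq2 (0.0447).

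PDX1, HNF4A and CFTR were not tested. PDX1 (ENSG00000139515, chromosome 13 at 27920000 to 27926313, plus strand) had 9, 1 and 2 reads in PANC1OR and 17, 8 and 8 in PANC1. Its level was 0.336, 0.0624 and 0.165 CPM in PANC1OR, against 1.06, 0.836 and 0.489 CPM in PANC1, without overlap. Its summed reads, divided by the lines' library totals, were 3.59-fold lower in PANC1OR (exact 95% counting interval 1.81 to 7.64, counting error only). Without the filter on low counts the log2 fold change of PDX1 was -1.88 ± 0.63 (adjusted p = 0.0424). It also passed the filter in the fits without PANC1OR replicate 1, 2 or 3 or PANC1 replicate 3, with an adjusted p of 0.0533, 0.18, 0.0476 and 0.0964, of which that without PANC1OR replicate 3 lies under 0.05. HNF4A (ENSG00000101076, chromosome 20 at 44355699 to 44432845, plus strand) had 2 reads in all of PANC1OR and 0 in PANC1. CFTR (ENSG00000001626, chromosome 7 at 117287120 to 117715971, plus strand) had 0 reads in the 6 libraries. A count of 0 allows up to 3 reads over a line, which is 0.0547 CPM in PANC1OR and 0.0715 CPM in PANC1. HNF4G, the paralog of HNF4A, was present at 11.7 ± 2.73 CPM in PANC1OR and 8.52 ± 1.04 CPM in PANC1 (adjusted p = 0.285).

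**Figure D2:**
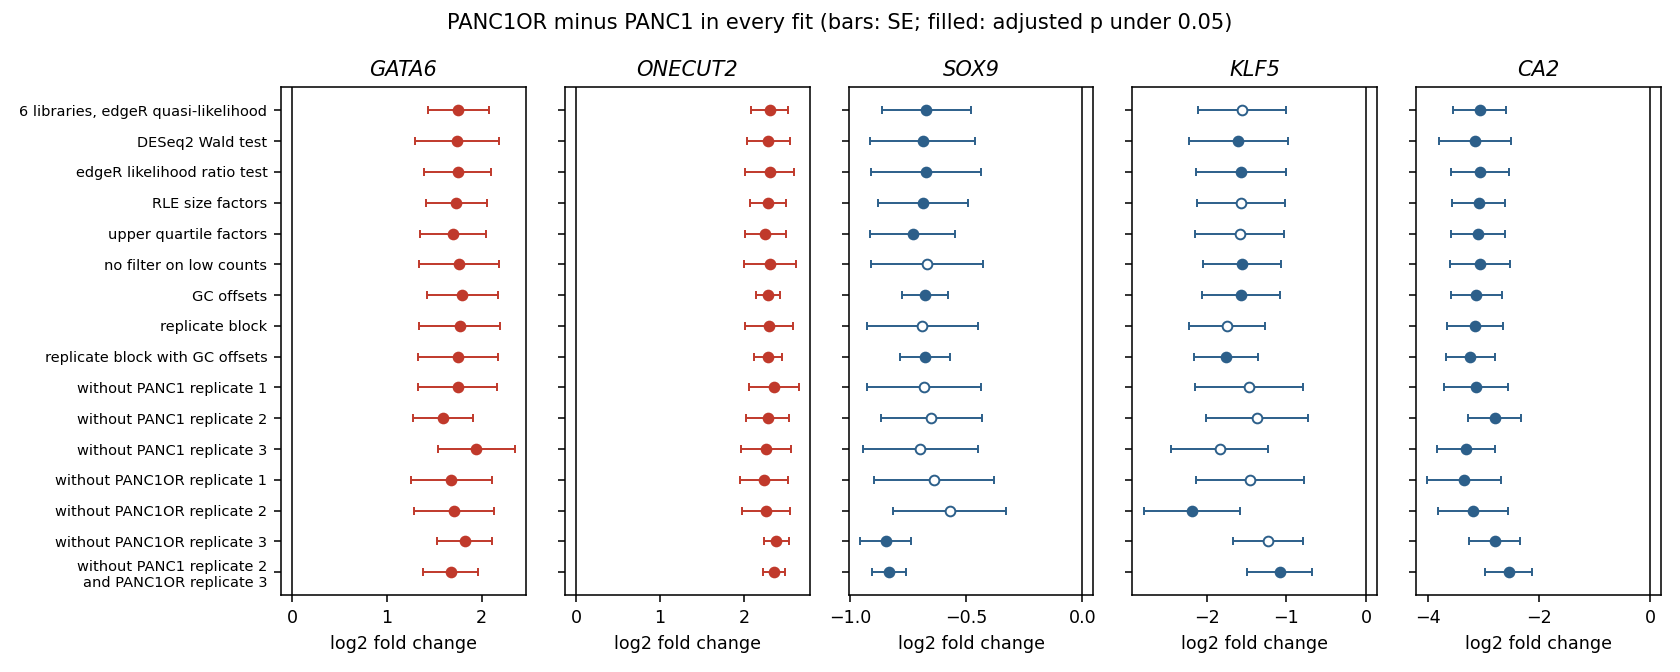
Log2 fold change, PANC1OR minus PANC1, of the 5 tested members (one panel each, own axis) in the fit of 6 libraries and in each alternative fit (rows); bars are SE, and filled points have an adjusted p under 0.05. GATA6, ONECUT2 and CA2 are filled in every row, while SOX9 and KLF5 are filled in some rows only.

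Among the GATA paralogs 1 rose and another fell. GATA3, a factor of luminal epithelium and T cells, rose to 17.5 ± 3.62 CPM in PANC1OR, against 1.22 ± 0.381 CPM in PANC1 (log2 fold change 3.81 ± 0.32, adjusted p = 0.000149). GATA5, a gut and heart factor, fell to 1.32 ± 0.787 CPM in PANC1OR, against 59.6 ± 8.55 CPM in PANC1 (-5.55 ± 0.42, adjusted p = 9.21e-05). GATA4, which acts with GATA6 in the early pancreas, stood at 31.6 ± 14.1 CPM in PANC1OR and 29.6 ± 3.95 CPM in PANC1 (adjusted p = 0.89), and GATA2 at 28.3 ± 13.6 CPM in PANC1OR and 60.3 ± 4.48 CPM in PANC1 (adjusted p = 0.0514). Of 4 tested GATA paralogs 1 was thus called higher and 1 lower, beside 10.3% and 7.5% of all tested genes. Per kilobase of exon GATA6 stood at 0.663 ± 0.0853 and GATA5 at 0.504 ± 0.3003 CPM per kb in PANC1OR, which overlap, and at 0.192 ± 0.0522 and 22.7 ± 3.26 CPM per kb in PANC1, which do not. Without PANC1OR replicate 3, 1 GATA paralog was higher and 2 were lower, beside 22.1% and 22% of all genes in that fit. DESeq2, the likelihood ratio test, upper quartile factors and no filter gave the same counts. So did GC offsets, GC offsets with the replicate block, and the fit without PANC1 replicate 2 and PANC1OR replicate 3 together. In this order, these fits called 21.7%, 22.2%, 17.8%, 11.4%, 39.1%, 33.7% and 58.5% of all genes in either direction.

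Of 12 tested KLF paralogs 3 rose and 2 fell, beside 10.3% and 7.5% of all tested genes. KLF4, a barrier and gut epithelium factor, rose to 8.70 ± 2.98 CPM in PANC1OR, against 1.48 ± 0.655 CPM in PANC1 (2.50 ± 0.40, adjusted p = 0.00378). KLF8 rose to 3.64 ± 0.392 CPM in PANC1OR, against 0.0967 ± 0.0324 CPM in PANC1 (5.15 ± 0.40), and so passed the filter only through PANC1OR. KLF7 fell to 0.712 ± 0.194 CPM in PANC1OR, against 26.5 ± 4.06 CPM in PANC1 (-5.16 ± 0.30). KLF12 was higher (1.29 ± 0.29, adjusted p = 0.0185) and KLF9 lower (-1.86 ± 0.46, adjusted p = 0.0269). Of the 6 fits without 1 library, KLF12 was called in the 1 without PANC1OR replicate 3, and its adjusted p reached 0.0934 without PANC1 replicate 3. KLF9 lost it without PANC1 replicate 1 or 3 or PANC1OR replicate 2 (0.0939, 0.123 and 0.0571). KLF6, the highest KLF paralog per kilobase, averaged 302 ± 18.4 CPM in PANC1OR and 317 ± 19.1 CPM in PANC1 (adjusted p = 0.818). Leaving out PANC1OR replicate 3 gave 3 higher and 5 lower KLF paralogs, beside 22.1% and 22% of all genes in that fit.

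Of 6 tested carbonic anhydrase paralogs 2 rose and 1 fell, beside 10.3% and 7.5% of all tested genes. CA8, whose protein lacks catalytic activity, fell to 6.50 ± 0.498 CPM in PANC1OR, against 140.3 ± 14.3 CPM in PANC1 (-4.43 ± 0.20, adjusted p = 1.48e-05). CA11, another inactive family member, rose to 14.2 ± 5.26 CPM in PANC1OR, against 2.82 ± 0.729 CPM in PANC1 (2.34 ± 0.34, adjusted p = 0.00239). CA7 stood at 1.65 ± 0.357 CPM in PANC1OR and 0.509 ± 0.0974 CPM in PANC1 (1.64 ± 0.35, adjusted p = 0.0139), a call lost without PANC1 replicate 1, 2 or 3 (0.0753, 0.0515 and 0.0564). CA1, which did not pass the filter, had 50, 26 and 7 reads in PANC1OR, against 6, 4 and 6 reads in PANC1, and its CPM did not overlap between the lines. The fit without PANC1OR replicate 3 called 6 higher and 1 lower of 7 tested, beside 22.1% and 22% of all genes.

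**Figure D3:**
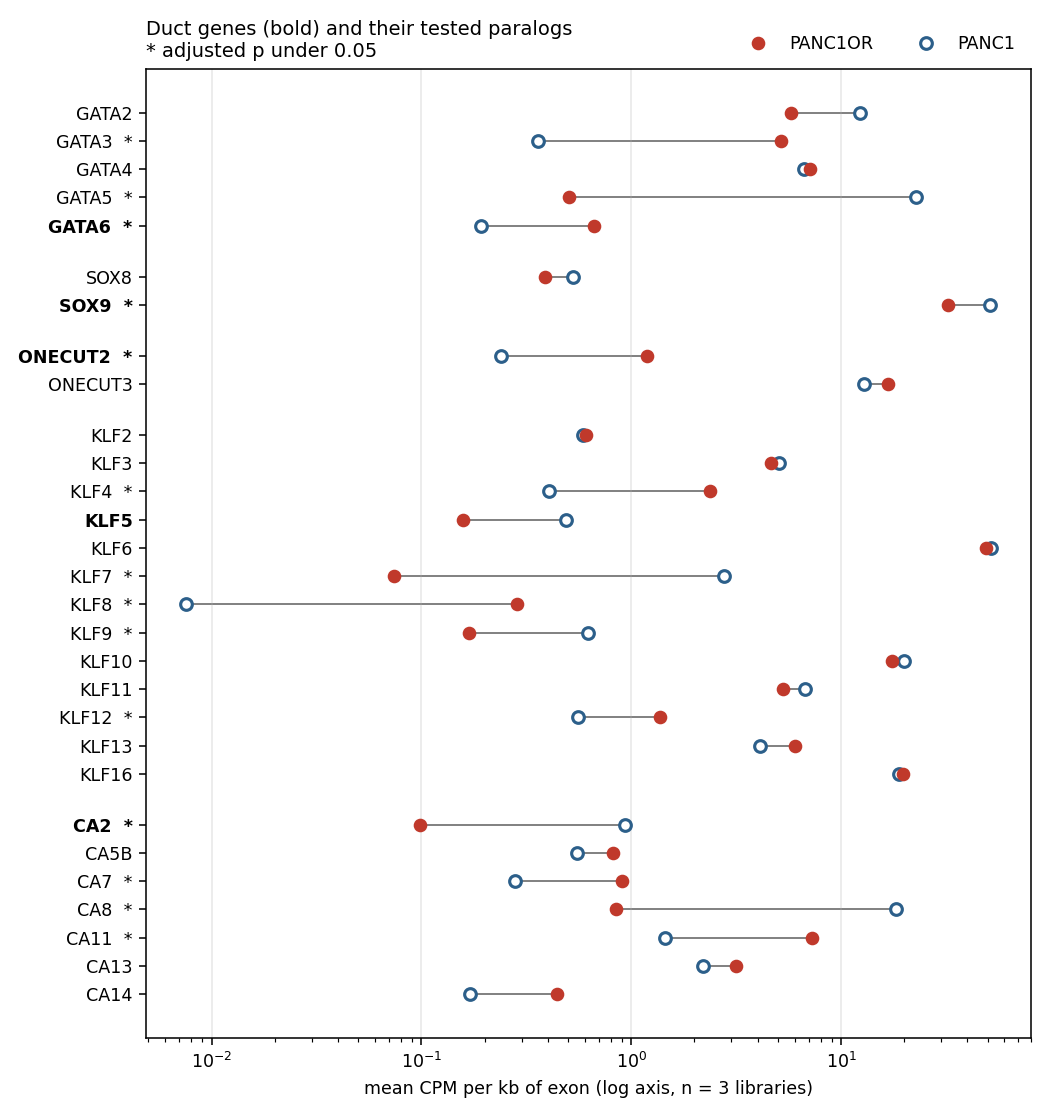
Mean CPM per kilobase of exon (log axis) of the duct identity genes (bold) and their tested paralogs in PANC1OR (filled red) and PANC1 (open blue), n = 3 libraries each; a star marks an adjusted p under 0.05. GATA5, KLF7, CA8 and CA2 lie far to the left in PANC1OR and GATA3, KLF8, KLF4 and CA11 to the right.

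Of 20 other transcription factors of the duct and its foregut progenitor 12 were tested, 1 rose and 1 fell, a share near the 10.3% and 7.5% of all tested genes. The factor that fell was NR5A2, an orphan nuclear receptor known for keeping acinar and foregut identity. It had 0.411, 0.312 and 0.908 CPM in PANC1OR, against 25.8, 25.1 and 25.6 CPM in PANC1 (-5.61 ± 0.38, adjusted p = 6.28e-05). KLF4 was the factor that rose. FOXA2, a pioneer factor of endoderm, averaged 82.2 ± 22.8 CPM in PANC1OR and 49.1 ± 2.79 CPM in PANC1 (0.74 ± 0.23, adjusted p = 0.0605), and the Notch target HES1 34.6 ± 11.2 CPM in PANC1OR and 20.8 ± 5.90 CPM in PANC1 (adjusted p = 0.149). EHF, an epithelial ETS factor, had 1 read in PANC1OR and 0 in PANC1. The median log2 fold change of the 12 was 0.25, against 0.04 over all tested genes, and without PANC1OR replicate 3 the list had 4 higher and 1 lower, beside 22.1% and 22% of all genes in that fit.

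Of the genes of duct secretion and of the duct surface 30 were listed and 14 tested, 1 rose and 2 fell, beside 10.3% and 7.5% of all tested genes. CD24, a surface glycoprotein of progenitor and tumour epithelium, fell to 3.55 ± 1.08 CPM in PANC1OR, against 166.8 ± 8.11 CPM in PANC1 (-5.53 ± 0.29, adjusted p = 2.22e-05). ANO1, a calcium-activated chloride channel, fell to 0.107 ± 0.0217 CPM in PANC1OR, against 4.42 ± 0.330 CPM in PANC1 (-5.25 ± 0.35, adjusted p = 6.28e-05). CLDN4, a tight junction claudin, had 23.3, 23.4 and 71.9 CPM in PANC1OR, against 3.61, 6.16 and 4.22 CPM in PANC1 (3.09 ± 0.51, adjusted p = 0.00421), and without PANC1OR replicate 3 its log2 fold change was 2.35. NHERF1, the scaffold that binds CFTR, averaged 32.5 ± 14.8 CPM in PANC1OR and 66.5 ± 11.05 CPM in PANC1 (adjusted p = 0.0614), and EPCAM 8.13 ± 2.05 CPM in PANC1OR and 14.1 ± 1.69 CPM in PANC1 (adjusted p = 0.0726). SCTR, the secretin receptor gene of duct cells, had no reads in any library. The median log2 fold change of the 14 was -0.27. Without PANC1OR replicate 3 the list had 4 higher and 8 lower, where 22.1% and 22% of all genes were called.

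Among 5 tested duct keratins KRT19 was the 1 that was called, where 17.8% of all tested genes were called. KRT19 had 15.7, 17.1 and 36.9 CPM in PANC1OR, against 243, 465 and 270 CPM in PANC1 (adjusted p = 0.000635). KRT18 averaged 315 ± 114 CPM in PANC1OR and 338 ± 104 CPM in PANC1 (adjusted p = 0.87), and KRT8 429 ± 251 CPM in PANC1OR and 484 ± 256 CPM in PANC1 (adjusted p = 0.849). KRT7 averaged 1.82 ± 1.37 CPM in PANC1OR and 0.747 ± 0.443 CPM in PANC1 (adjusted p = 0.213). The fit without PANC1OR replicate 3 had 1 keratin higher and 1 lower, beside 22.1% and 22% of all genes in that fit. Without PANC1 replicate 2 and PANC1OR replicate 3 together 2 were higher and 2 lower, beside 58.5% of all genes in either direction. The summed keratin level was 557, 583 and 1246 CPM in PANC1OR replicates 1 to 3, against 831, 1718 and 938 CPM in PANC1 replicates 1 to 3. The highest library of each line was thus the GC-shifted one. Set beside the label of a duct carcinoma line, SOX9, KRT8 and KRT18 were well expressed in both lines. CFTR, SCTR and HNF4A were at or near 0 in both. The other duct markers were mixed. KRT7, PDX1 and KLF5 were weak in both lines, and EPCAM was not called. KRT19 and CA2 were lower in PANC1OR, and ONECUT2 and GATA6 higher.

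Many genes of the tumour subtypes were too weak to be tested. Of 24 genes of the classical subtype 4 were tested and 1 rose, beside 10.3% of all tested genes. AGR2, a disulphide isomerase of mucus-secreting cells, reached 573, 620 and 484 CPM in PANC1OR, against 145, 171 and 147 CPM in PANC1 (1.86 ± 0.18, adjusted p = 0.000338). CTSE, CLRN3 and REG4 of that list had no reads. Of 25 basal-like genes, 24 of them in the table, 9 were tested, 2 rose and 1 fell, beside 10.3% and 7.5% of all tested genes. AREG, an EGF receptor ligand gene, rose to 26.0 ± 5.73 CPM in PANC1OR, against 0.373 ± 0.166 CPM in PANC1. DHRS9, a retinol dehydrogenase gene, rose by 8.14 ± 0.28 on the log2 scale (adjusted p = 8.17e-06), and by 8.17 ± 0.51 in DESeq2, a wider SE. KRT15, a basal keratin gene, fell to 1.12 ± 0.547 CPM in PANC1OR, against 9.79 ± 2.38 CPM in PANC1 (-3.16 ± 0.38). Without PANC1OR replicate 3 the classical list had 1 higher and 1 lower and the basal-like list 3 higher and 2 lower, again beside 22.1% and 22%. KRT7 stands in both the keratin and the basal-like list.

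Acinar and islet markers were low in both lines, while the stellate cell and fibroblast list was not, through COL1A1. None of 16 acinar markers passed the filter, and their summed level was 0.785 to 2.23 CPM in PANC1OR and 1.31 to 1.88 CPM in PANC1, with PTF1A, GP2, PNLIP and AMY2A at 0 reads. Of 18 islet markers 3 were tested and 0 called by edgeR's test, with 0 at an unadjusted p under 0.05 and 0 in DESeq2, but 1 was called lower without the filter, with GC offsets and without PANC1OR replicate 3. The count was also 1 lower with GC offsets and the replicate block, and without PANC1 replicate 2 and PANC1OR replicate 3 together. The islet sum was 8.48 to 13.2 CPM in PANC1OR and 11.6 to 15.5 CPM in PANC1, and INS, GCG, SST, PPY, IAPP and NEUROD1 had no reads. Of 14 stellate cell and fibroblast markers 6 were tested and 1 fell, beside 7.5% of all tested genes. THY1 was the marker that fell, at 7.32 ± 1.68 CPM in PANC1OR and 29.6 ± 6.27 CPM in PANC1 (-2.02 ± 0.27, adjusted p = 0.00141). In that list 1 marker was also called higher without the filter, without PANC1OR replicate 3, and without PANC1 replicate 2 and PANC1OR replicate 3 together. With GC offsets 2 were called higher, and 2 with GC offsets and the replicate block. Of all genes, the fits without the filter, without PANC1OR replicate 3 and with GC offsets called 11.4%, 44.1% and 39.1% in either direction. The fits with GC offsets and the replicate block and without PANC1 replicate 2 and PANC1OR replicate 3 together called 33.7% and 58.5%. The sum of that list was 131, 125 and 311 CPM in PANC1OR replicates 1 to 3, against 130.0, 123 and 118 CPM in PANC1 replicates 1 to 3. Only PANC1OR replicate 3, which stood apart by base composition, was far above PANC1. Most of the sum was COL1A1, and FAP had no reads.

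**Figure D4:**
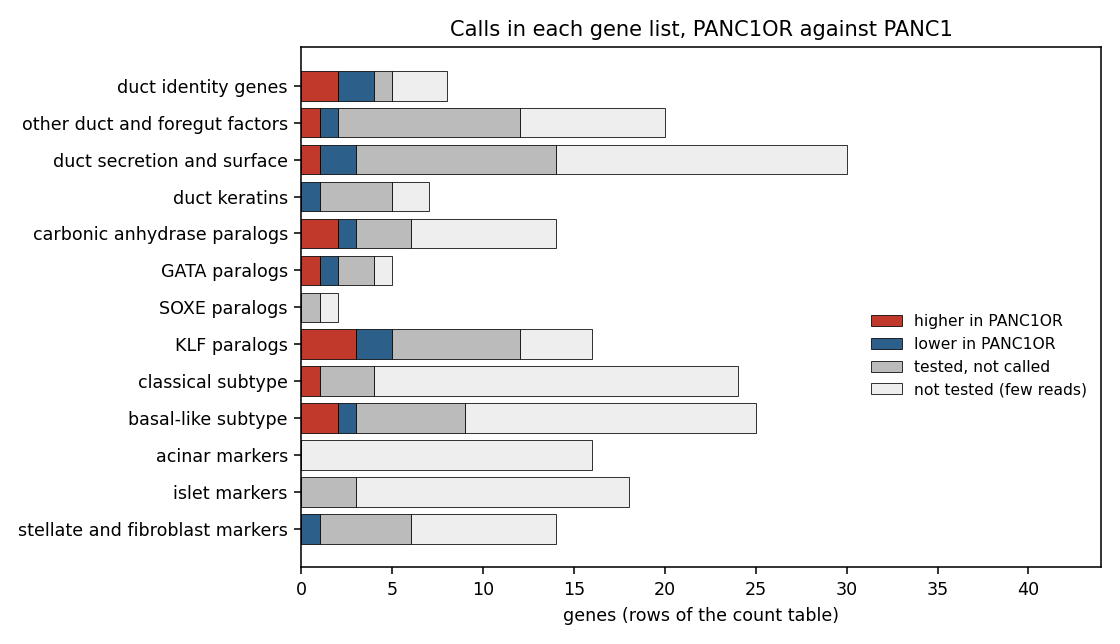
Number of genes of each list that were higher in PANC1OR (red), lower in PANC1OR (blue), tested without a call (grey) or not tested for few reads (pale). The 16 acinar markers were all untested, and the duct identity genes had 2 higher, 2 lower, 1 not called and 3 not tested.

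The genes nearest to each member in pattern were searched by the Euclidean distance of log2(CPM + 0.5) centred per gene over the 6 libraries, among the 12522 protein-coding genes that were tested and averaged 1 CPM or more. This is a description, since most of each pattern is the difference between the lines. Nearest to GATA6 were EDEM1, DENND11 and APBB2 (distances 0.0971, 0.155 and 0.186), and nearest to ONECUT2 were UBASH3B, METTL21A and HERC3 (0.111, 0.12 and 0.214). SOX9 was nearest to PHF13, SUPT6H and MAP2K1 (0.094, 0.115 and 0.138). CA2 was nearest to RBP7, PRDM1 and NEK11 (0.336, 0.405 and 0.43), and KLF5 to SMN1, CLGN and MAPK10 (0.517, 0.518 and 0.544). The weaker members CA2 and KLF5 had no neighbour as close as the other 3 had. Adding 0.5 CPM shrinks the differences of weak genes. The neighbours of GATA6 had log2 fold changes of 1.33, 1.41 and 1.37, against its own 1.75. Those of CA2 had -2.04, -3.16 and -1.60, against its own -3.06. SMN1 has a near-identical copy, so its count is uncertain.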

How the data were processed

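The deposited values are read counts per gene, 1 column per library, which the authors did not normalize. Per the series design text and the submitters' processing notes, the authors used FastQC 0.11.5 for quality, cutadapt in Trim Galore 0.4.2 for trimming, STAR 2.5 with GRCh38 for alignment, and featureCounts (Subread 1.6.2) for counting. No source used here states the annotation release, the strand setting or how multi-mapping reads were treated. The table held 5 more columns, without values. Libraries of PANC1OR replicates 1 to 3 held 26394388, 15702042 and 12623721 reads, and those of PANC1 replicates 1 to 3 held 15660171, 10199268 and 15875431. No 2 libraries agreed within sampling noise (chi-square over degrees of freedom was 3.99 for the closest pair).

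Genes were filtered with filterByExpr of edgeR 4.0.16 (R 4.3.3), about 10 reads in a library of median depth (0.638 CPM) in at least 3 libraries. The filter left 18751 genes, which were scaled by TMM and tested by quasi-likelihood F tests with the line as the single term. The authors' edgeR likelihood ratio test was kept as an alternative. SE values derive from the F statistic. Positions, exon length and GC came from GENCODE 44, matched by identifier. The nearest patterns used a pseudocount of 0.5.

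All 8 members were named, with up to 4 called genes of each list with the smallest p that averaged 1 CPM or more, and members that complete a small count. KLF9 and genes given without a call were named after their values were seen. The members and lists were chosen with earlier results of these data known, and some genes stand in more than 1 list. Lists were described by counts and medians, without a set test. Alternatives were DESeq2 1.42.0, the likelihood ratio test, RLE and upper quartile factors, no filter, GC offsets, the replicate number as a block, and fits without libraries. Some results on list genes are not reported here.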

Additional observations from a re-analysis of the deposited data

How the results depend on the processing

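ONECUT2, GATA6 and CA2 kept their direction and their call in each of the 15 alternative fits. SOX9 was lower in each, at -0.67 without the filter on low counts (adjusted p = 0.0664), and between -0.85 and -0.57 without 1 library. KLF5 was lower in each and passed at -1.61 in DESeq2, -1.57 in the likelihood ratio test, -1.55 without the filter, -1.57 with GC offsets, -1.76 with GC offsets and the replicate block, and -1.08 without PANC1 replicate 2 and PANC1OR replicate 3. Without 1 library KLF5 ranged from -2.19 to -1.23. The cause was not tested.

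Over all genes, 1939 were higher and 1406 lower. With GC offsets these were 3748 and 3588, with GC offsets and the replicate block 3245 and 3078, and without PANC1 replicate 2 and PANC1OR replicate 3 together 5664 and 5758. Without 1 library they ranged from 1103 to 4340 and from 718 to 4323, the largest without PANC1OR replicate 3. The cutoffs of the series design text left 1172 of 3345. The lists held 10 higher and 10 lower genes, 24 and 19 with GC offsets, 20 and 16 with GC offsets and the block, 26 and 25 without PANC1 replicate 2 and PANC1OR replicate 3, and 8 to 23 and 9 to 24 without 1 library.

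Same-numbered libraries of the lines deviated with correlations of 0.52, -0.49 and -0.27 over 16456 genes. The highest correlation, 0.55, was that of PANC1OR replicate 3 with PANC1 replicate 2, which had the same direction of GC shift. These values therefore cannot tell whether replicate numbers pair the cultures. With the replicate number as a block SOX9 stood at -0.69 (adjusted p = 0.116), and 922 genes were lower. Low counts limit the precision of GATA6, PDX1, KLF5, CA2, HNF4A and CFTR, each of which had 33 reads or fewer in at least 1 line.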
